A study of Homo sapiens with 9 samples.

Results

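The 8 genes described here, PPDPF, RNF10, GNPDA1, DBNDD1, NME4, JARID2, FAM120AOS and CCDC92, were chosen from 60671 genes because their RNA was lower, with little spread between replicates, in cells carrying a short hairpin RNA (shRNA) against CA2 than in both groups of control cells, at an abundance of 38 CPM (a count scaled to the library's total) or more. Each was found once in the tables by its Ensembl ID, and all 8 were among the 19812 genes with enough reads to be tested. The cells were C28/I2, an immortalised human chondrocyte line, and CA2 encodes carbonic anhydrase 2, a cytosolic enzyme that hydrates carbon dioxide. RNA was sequenced in 3 groups of 3 libraries, named Control, Scrambled and CA2 shRNA by the labels. What the Scrambled cells carried and whether Control cells were transduced is not described, and no clone, dose or time is named. Nothing in the labels says that the 3 libraries of a group came from separate cultures, so errors and p-values measure only the spread between these libraries, which may be technical.

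The 8 genes are known from different processes. RNF10 is a RING-type ubiquitin ligase that marks proteins of the small ribosomal subunit, among them RPS2 and RPS3, when ribosomes stall, and the protease USP10 takes the mark off again. GNPDA1 is a glucosamine-6-phosphate deaminase: it returns amino sugar to fructose-6-phosphate, the reverse of the step by which GFPT1 and GFPT2 start the hexosamine pathway that supplies building blocks of hyaluronan and of the glycosaminoglycans of cartilage. NME4 is a nucleoside diphosphate kinase of mitochondria that binds the membrane lipid cardiolipin. JARID2 is a Jumonji-family protein without demethylase activity that works as an accessory subunit of Polycomb repressive complex 2, which methylates histone H3 to silence genes. CCDC92 is a coiled-coil protein found at centrioles, and DBNDD1 carries a dysbindin domain, as does DTNBP1, a subunit of the BLOC-1 complex of lysosome-related organelles. PPDPF, the pancreatic progenitor cell differentiation and proliferation factor, is a small protein whose fish counterpart acts in growth of the exocrine pancreas, and FAM120AOS lies on the strand opposite FAM120A.

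Libraries held between 16994368 and 34261244 counts. The targeted gene, CA2, had 28, 15 and 30 counts in CA2 shRNA and 41 to 66 counts in the 6 control libraries, which is 0.905 to 1.397 CPM against 1.82 to 2.31 CPM, with no overlap. CPM values here carry TMM factors, a correction for library composition, except for the cell type markers, alone or summed. Among chondrocyte markers, 6 of 17 reached 1 CPM as a mean over all 9 libraries and 1, COL9A1, had no count in any library. The summed level of the 17 was 113 to 126 CPM in the control libraries and 129.7 to 133 CPM in CA2 shRNA, most of it from the regulator SOX9, while the cartilage matrix genes COL2A1 and ACAN were at 1.89 and 1.05 CPM in Control and 1.63 and 0.747 CPM in CA2 shRNA. Marker lists of immune, endothelial, epithelial, adipocyte and muscle cells each summed to at most 4.80 CPM in any library. The 3 neural markers, chiefly SNAP25, summed to 21.5 to 25.3 CPM in the control libraries and 13.6 to 16.6 CPM in CA2 shRNA; the part of either marker list in the differences below was not tested. Mitochondrial counts made up 4.06% and 4.08% of Control 3 and Scrambled 2, which in this differ from the 5.85% to 6.87% of the other 4 control libraries. Values without them are given below.

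A short run of letters was shared by most of the 8 transcripts. An earlier analysis of these data had noted ACACCAA or CACCAAA in the 3' untranslated region (3' UTR) of many leading falls, PPDPF among them, so the counts here are a description and no separate support. In the GENCODE 29 transcript with the longest 3' UTR of each gene (RNA strand), 7 of the 8 members held at least 1 of these heptamers in the 3' UTR, and 6 held both, overlapping as ACACCAAA. Of 14037 tested genes with such a transcript, 18.4% held either heptamer and 4.15% the octamer. Among the 10421 with a 3' UTR of 327 to 4271 bases, the range of the members, the shares were 16.6% and 3.49%. The sites are shown because 7 of the 8 members hold one. Each is printed 5' to 3' with the matching letters in capitals and 10 bases on either side.
PPDPF: aacacagcagACACCAAAaaccagtgag
RNF10: tcctgtctttACACCAAAataaagtatt
GNPDA1: ccaggaaaatACACCAAAtgcttctagt
DBNDD1: ttagctcagaACACCAAAtatcaccaga
NME4: atcctttttgCACCAAAgtgccggaca
FAM120AOS: caccagcagaACACCAAAggagaccata
CCDC92: cctcttcttcACACCAAAatatgatcgt

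The capitals lie on GRCh38 at chr20:63522045-63522052 for PPDPF, chr12:120576860-120576867 for RNF10, chr5:142001073-142001080 for GNPDA1, chr16:90005632-90005639 for DBNDD1, chr16:400551-400557 for NME4, chr9:93446956-93446963 for FAM120AOS and chr12:123936901-123936908 for CCDC92. Counted from the first base after the stop codon, the site starts at base 150 of 1436 in CCDC92, 166 of 327 in PPDPF, 194 of 928 in RNF10, 209 of 417 in NME4, 648 of 4271 in FAM120AOS, 696 of 1470 in DBNDD1 and 949 of 1360 in GNPDA1. GNPDA1 held a further CACCAAA at base 697, and FAM120AOS held 3 more, at bases 796, 2292 and 3963. NME4 had the 7-letter form alone.

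JARID2 was the exception in its 3' UTR, where neither heptamer occurred in 1789 bases, but its coding sequence held 7 heptamers at 4 separate sites. At least 1 heptamer before the 3' UTR was found in 24.8% of the 14037 genes, and as many as in JARID2 or more in 15 genes (0.107%). Neither share is matched to the 3806 bases that JARID2 has there. JARID2 was singled out by its 3' UTR, so these shares are a description. The 3 JARID2 sites with all 8 letters start at coding bases 530, 560 and 3127, counted from the A of the start codon, and are printed as above.
JARID2, base 530: gctgtcacatACACCAAAgccaagagag
JARID2, base 560: ctggtcaaggACACCAAAcccaatcacc
JARID2, base 3127: cagtaaacccACACCAAAaagaggtccc

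They lie on the plus strand at chr6:15496271-15496278, chr6:15496301-15496308 and chr6:15520153-15520160. RNF10 had 1 heptamer in its coding sequence, and the other 6 members had none before the 3' UTR. A match of letters is not a site of binding, and whether these runs have any part in the lower levels was not tested.

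PPDPF showed the widest difference of the 8. The gene (ENSG00000125534) lies on the plus strand at chr20:63520765-63522206 (GRCh38, from the deposited table). Its levels were 462, 510.4 and 525 CPM in the Control libraries 1 to 3, 502, 506 and 460.5 CPM in those of Scrambled, and 136, 131 and 135 CPM in those of CA2 shRNA. The last 3 lay close together, far under the 6 control libraries, which overlapped one another. The CA2 shRNA mean of 134 ± 2.74 CPM (SD, n = 3) was 27.3% of the Scrambled mean of 489 ± 25.1 CPM and 26.8% of the Control mean of 499 ± 33.1 CPM. On the log2 scale the fitted differences were -1.87 (SE 0.0612) and -1.90 (SE 0.0613). These contrasts chose the gene, so here and for the other 7 genes they are given as a description with no test.

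RNF10 (ENSG00000022840, plus strand, chr12:120533480-120577588) and GNPDA1 (ENSG00000113552, minus strand, chr5:141991749-142013041) had nearly the same difference. RNF10 stood at 119, 127.5 and 132 CPM in Control, at 129, 129.7 and 128 CPM with Scrambled, and at 52.5, 50.02 and 48.3 CPM with CA2 shRNA. The Scrambled libraries were nearly alike, with an SD of 0.717 CPM, while Control ranged wider around them. The ligase gene stood at 38.9% of its mean in Scrambled and 39.8% of that in Control, with log2 differences of -1.36 (SE 0.0592) and -1.33 (SE 0.0592). GNPDA1 gave 61.9, 63.3 and 65.2 CPM in Control, then 66.6, 67.3 and 61.8 CPM with Scrambled, and 24.8, 23.7 and 25.5 CPM with CA2 shRNA. Its highest CA2 shRNA library was far under its lowest control library, Scrambled 3, and the log2 differences were -1.40 (SE 0.0664) and -1.36 (SE 0.0665), leaving 37.8% and 38.8%.

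DBNDD1 (ENSG00000003249, minus strand, chr16:90004871-90020128) was at 53.1, 59.3 and 56.2 CPM in Control, then 52.5, 56.3 and 53.2 CPM with Scrambled, and 19.9, 19.9 and 20.7 CPM with CA2 shRNA. The libraries of both control groups were interleaved, and none came near the 3 low ones. What remained was 37.3% of Scrambled and 35.8% of Control (log2 differences -1.42, SE 0.0699, and -1.48, SE 0.0699). NME4 (ENSG00000103202, plus strand, chr16:396725-410367) had the smallest fold difference of the 8. Its values were 272, 281 and 282 CPM in Control, then 293, 275 and 273 CPM with Scrambled, and 142, 133 and 131 CPM with CA2 shRNA. Scrambled 1 was the highest and CA2 shRNA 3 the lowest, with a wide gap between the control libraries and the others. The share left was 48.3% against Scrambled and 48.7% against Control, or -1.05 (SE 0.0539) and -1.04 (SE 0.0539) on the log2 scale.

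JARID2 (ENSG00000008083, plus strand, chr6:15246069-15522042) hardly varied among control libraries, with 64.6, 63.5 and 63.3 CPM in Control and 64.5, 65.3 and 63.6 CPM in Scrambled. With CA2 shRNA it stood at 29.7, 29.6 and 27.6 CPM, so that no library approached the controls; the means were 44.9% and 45.4% of the control means (log2 differences -1.16, SE 0.0624, against Scrambled and -1.14, SE 0.0625, against Control). FAM120AOS (ENSG00000188938, minus strand, chr9:93431441-93453581) was the tightest of all, at 46.6, 48.5 and 47.4 CPM in Control, then 46.2, 46.8 and 45.7 CPM with Scrambled, and 20.6, 20.8 and 20.7 CPM with CA2 shRNA. The remaining share was 44.7% of Scrambled and 43.5% of Control (-1.16, SE 0.0654, and -1.20, SE 0.0654). CCDC92 (ENSG00000119242, minus strand, chr12:123918660-123972831) gave 47.1, 48.5 and 50.3 CPM in Control, then 50.01, 49.3 and 49.5 CPM with Scrambled, and 21.1, 20.1 and 22.4 CPM with CA2 shRNA. Control spanned the Scrambled libraries, and CA2 shRNA lay far under both. That left 42.7% and 43.6% (-1.22, SE 0.0689, and -1.19, SE 0.069).

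**Figure D1:**
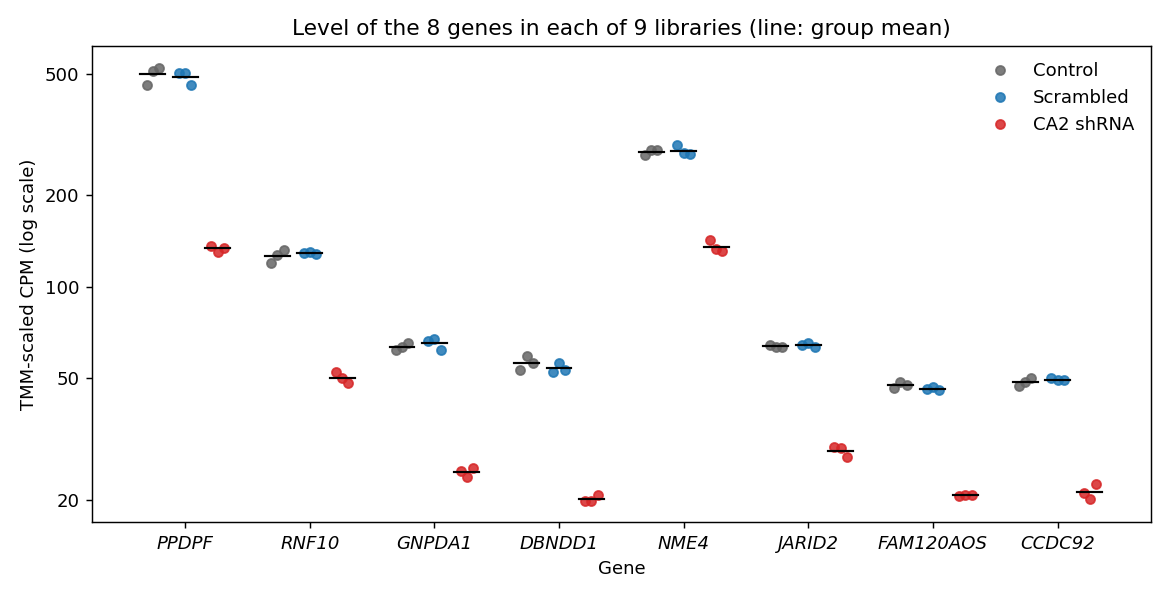
Level of each gene in each library in TMM-scaled CPM on a log axis, coloured by group, with the group mean as a line. For every gene the 3 CA2 shRNA points sit under all 6 control points, for PPDPF at 131 to 136 CPM under 460.5 CPM or more, and for NME4, the gene with the smallest fold difference, at 131 to 142 CPM under 272 CPM or more.

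For each of the 8 genes the 3 CA2 shRNA libraries lay under the 6 control libraries, an arrangement found in 11.9% of the genes tested. All 8 also passed the test of edgeR against Scrambled and against Control as falls, as did 6.98% of genes. The members were picked by these contrasts, so neither count says anything further about them. Among all genes tested the median log2 difference was -0.025 against Scrambled and -0.0048 against Control, and 0.883% of genes had a difference of -1 or lower in both. In bulk RNA, fewer cells with a transcript and less transcript per cell cannot be told apart. Both comparisons use the same CA2 shRNA libraries, so their likeness for a gene is no second measurement. Without Control 3 and Scrambled 2, the 8 log2 differences ran from -1.83 to -1.04 against Scrambled and from -1.83 to -1 against Control.

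The threshold of 38 CPM lay just under FAM120AOS, whose overall abundance over the 9 libraries was 38.4 CPM, and CCDC92, at 40.1 CPM. When genes lower in both comparisons were ordered by the smaller ratio of the log2 difference to its SE, the members ran from 30.6 for PPDPF to 17.3 for CCDC92, which was in place 15. The 7 other genes down to that place, ACOT7, CCN2, PALLD, FBN1, INHBA, ATP13A2 and FSTL1, are not members, so the 8 are a selection from this order and not its top. The next 4 were NSA2 (17.2, at 24.5 CPM), LPGAT1 (17.2), TRMT112 (16.5) and PCNA (16.3). Of the 7, 4 held a heptamer of the kind printed above in the 3' UTR and 3 of them the octamer. CCN2, FBN1 and ATP13A2 held none there. All 4 of the next genes held a heptamer, but only LPGAT1 and TRMT112 the octamer. Over the 14037 scanned genes the shares were 18.4% and 4.15%. The 3' UTRs of INHBA, FSTL1 and LPGAT1 (4536, 4659 and 6442 bases) are longer than any member's, and the shares are not matched to that length.

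Scrambled against Control was the comparison the choice did not use directly, although picking genes lower than both groups favours genes whose control groups are alike. No member passed the test there. The log2 difference of Scrambled minus Control was -0.06 for DBNDD1 (95% confidence interval -0.19 to 0.08), -0.04 for FAM120AOS (-0.17 to 0.09), -0.03 for PPDPF (-0.15 to 0.09), 0.01 for NME4 (-0.10 to 0.12), 0.02 for JARID2 (-0.11 to 0.14), 0.03 for RNF10 (-0.09 to 0.15), 0.03 for CCDC92 (-0.11 to 0.16) and 0.04 for GNPDA1 (-0.09 to 0.17). Every interval spans 0. By edgeR's quasi-likelihood test the adjusted p was 1 for each of the 8, and the libraries of both groups overlapped for each; over all genes 3.14% had Scrambled lower without overlap and 3.66% higher. In that comparison 0% of all genes passed (0 of 19812), with 550 (2.78%) at an unadjusted p under 0.05, and DESeq2 called 1 gene.

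**Figure D2:**
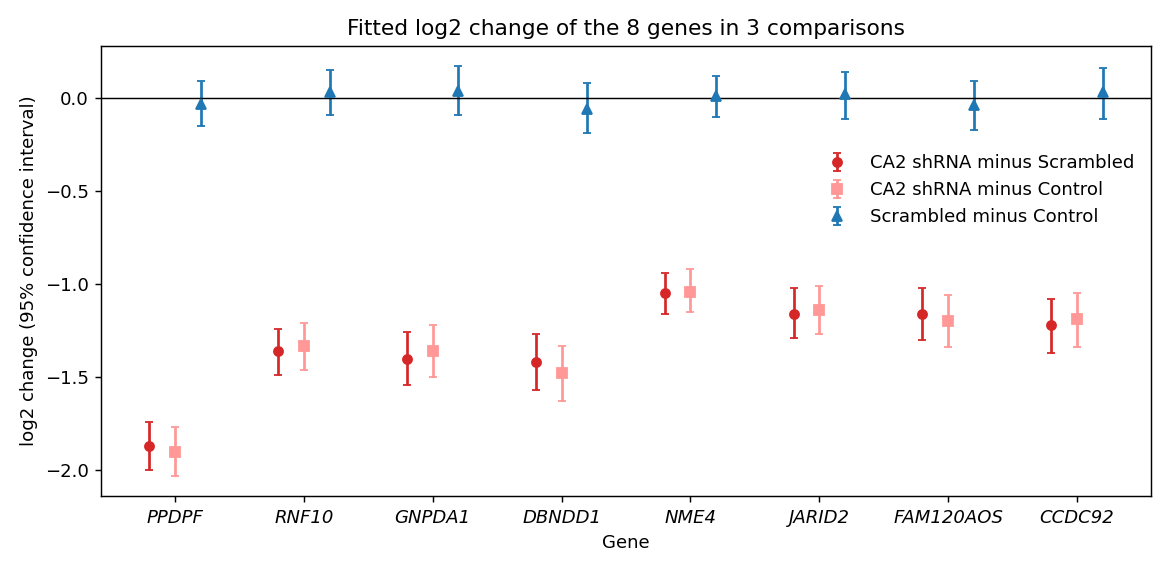
Fitted log2 difference of each gene with its 95% confidence interval for 3 comparisons. The CA2 shRNA differences lie between -1.90 for PPDPF and -1.04 for NME4, and the Scrambled minus Control differences between -0.06 and 0.04, with every interval spanning 0.

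The members differed in how tight they were. The SD of the log2 level between libraries of a group, pooled over the 3 groups, was 0.02 for FAM120AOS, 0.0375 for JARID2, 0.05 for NME4, 0.0543 for CCDC92, 0.0545 for GNPDA1, 0.0549 for RNF10, 0.0582 for DBNDD1 and 0.073 for PPDPF. Over the 5573 genes with at least 38 CPM in both control groups the median was 0.0755, so all 8 lay under it, and PPDPF did so at percentile 46.1 and FAM120AOS at percentile 0.251. Counting alone gives an SD of 0.0529 for FAM120AOS and 0.0449 for JARID2 at their counts, which are 344 to 1616 and 491 to 2158 per library. Their observed spread was 0.378 and 0.836 times that. Over the 5573 genes the median was 2.54 times the counting SD. Those genes have no upper limit of level, so that median is not matched to FAM120AOS or JARID2. Tightness was part of the choice of these genes. PPDPF, with 2165 to 17900 counts per library, varied 3.82 times as much as counting alone gives, and NME4 2.37 times.

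**Figure D3:**
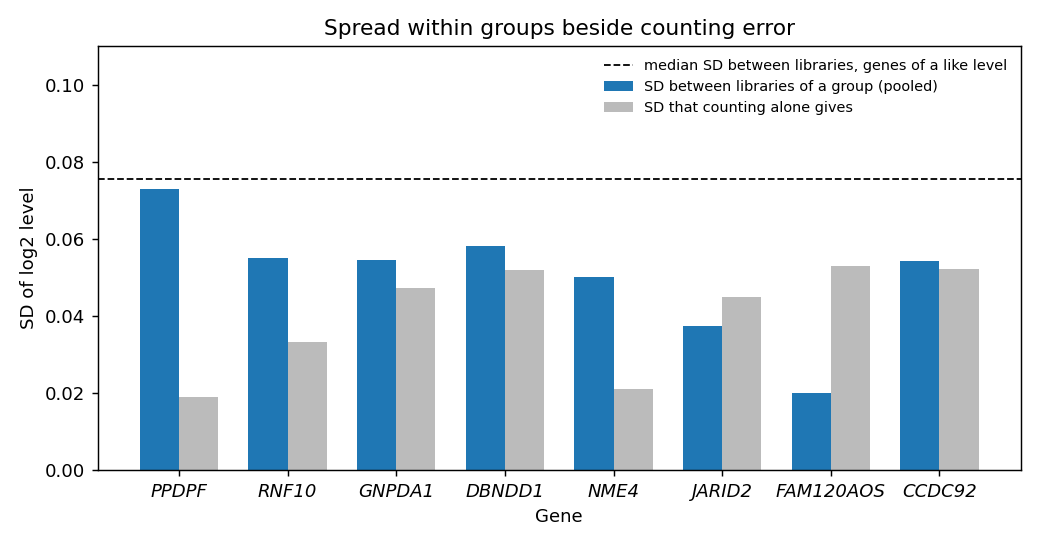
Pooled SD of the log2 level between libraries of a group (blue) beside the SD that counting alone gives (grey). The dashed line at 0.0755 is the median over all genes with at least 38 CPM in both control groups. The legend calls these genes of a like level, but they have no upper limit. FAM120AOS and JARID2 are the 2 genes whose blue bar is under the grey one.

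Per length of exon the 8 spanned a wide range. By the deposited RPKM (reads per kilobase of exon, scaled by library total), PPDPF stood highest in Control at 472 ± 28.8 (SD, n = 3), followed by NME4 at 75.6 ± 1.13, RNF10 at 21.3 ± 0.971, GNPDA1 at 16.0 ± 0.371, DBNDD1 at 11.9 ± 0.5665, JARID2 at 10.2 ± 0.180, CCDC92 at 5.89 ± 0.176 and FAM120AOS at 4.67 ± 0.0626. No neighbours in that order overlapped between their libraries, and Scrambled had the same order, again without overlap. In CA2 shRNA, JARID2 (4.62 ± 0.154) stood above DBNDD1 (4.27 ± 0.167), also without overlap, and the other places were the same. PPDPF in CA2 shRNA, at 127 ± 4.83, was still above every other member in any group. The exon length behind these values joins all exons of a gene, 1053 bases for PPDPF and 10144 for FAM120AOS, so a gene used in a short form is understated.

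The base content of the members varied. The scanned transcripts had 47.1% (FAM120AOS) to 68.2% (PPDPF) G and C, with a median of 54.7% against 49.7% over the scanned genes, and the median exonic length of the 8 was 5300 bases against 5135 over the scanned genes. RefSeq promoter windows on GRCh38.p14, from 250 bases before the start of a transcript, were found for 7 members, 12 windows in all, and none for DBNDD1. These windows held 10 to 51 CG dinucleotides against a median of 14 over 35116 windows. The letters GGGCGG, read on both strands, occurred in 10 of the 12 windows, with at least 1 such window for each of the 7 members, and in 45.0% of all windows; of the 27305 genes with a window, tested here or not, 48.3% had at least 1 that held it. The letters CCAAT occurred in 4 windows of the members and in 34.6% of all windows, and TATAAA in 1 of the 12 and in 11.5%. Windows of 1 gene are not separate counts, and the member windows were richer in G and C (median 73.2% against 58.7%).

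The lower levels did not extend to most of the genes around the members. Among the 27 tested genes that overlap a member or are nearest to it on a side, 0 rose and 3 fell by edgeR's test in both comparisons, against 5.49% rises and 6.98% falls in both among all genes. The median log2 difference of the 27 was -0.08 against Scrambled and -0.04 against Control. Beside PPDPF, the translation elongation factor gene EEF1A2 differed by -0.08 (adjusted p = 0.433 against Scrambled) and the kinase gene PTK6 by -0.43 (adjusted p = 0.068). POP5 lies 1176 bases from RNF10 and stood at 0.13 (adjusted p = 0.265). Beside JARID2, DTNBP1 differed by 0.11 (adjusted p = 0.52), while the overlapping antisense gene JARID2-AS1 stood at -0.77 (SE 0.445, adjusted p = 0.273) and JARID2-DT at -0.57 (SE 0.297, adjusted p = 0.214). GAS8 shares 126 exonic bases with DBNDD1 and was at -0.32 (adjusted p = 0.0905). DECR2 lies on the same strand as NME4 and shares 572 exonic bases with it, the most of any overlapping gene here. It was at 16.7 CPM with Scrambled, where NME4 was at 280 CPM, and differed by -0.08 (adjusted p = 0.692). Reads in those shared bases cannot be assigned to either gene by strand. RNF14, a further ubiquitin ligase of stalled ribosomes, lies 1457 bases from GNPDA1 and differed by 0.12 (adjusted p = 0.275).

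FAM120AOS and FAM120A, on opposite strands, share 243 exonic bases in the tables. FAM120A, an RNA-binding protein gene, was at 299.7 CPM with Scrambled, 321 CPM in Control and 332 CPM with CA2 shRNA (log2 0.15, SE 0.0592, adjusted p = 0.103, against Scrambled and 0.05, SE 0.0591, adjusted p = 0.689, against Control). The strand setting of the counting is not given in the sources used here, so reads in shared bases cannot be assigned to a strand. Around CCDC92 the picture was more mixed. Of 6 tested genes that overlap it, DNAH10OS fell from 1.99 CPM (Scrambled) and 2.03 CPM (Control) to 0.497 CPM (log2 -1.97, adjusted p = 0.000104, and -2.03, adjusted p = 7.39e-05). DNAH10OS lies on the same strand as CCDC92 and shares no exonic bases with it. Which of these genes its few reads come from was not tested. The dynein heavy chain gene DNAH10 fell from 1.88 and 1.44 CPM to 0.712 CPM (log2 -1.35, adjusted p = 0.00582, and -0.99, adjusted p = 0.0472). DNAH10 lies on the opposite strand and shares 489 exonic bases with CCDC92, which stood at 48.6 CPM in Control. ZNF664, which overlaps too, differed by 0.15 (adjusted p = 0.122), and the flanking proton pump gene ATP6V0A2 fell by 0.23 (adjusted p = 0.0228 against Scrambled and 0.0226 against Control).

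**Figure D4:**
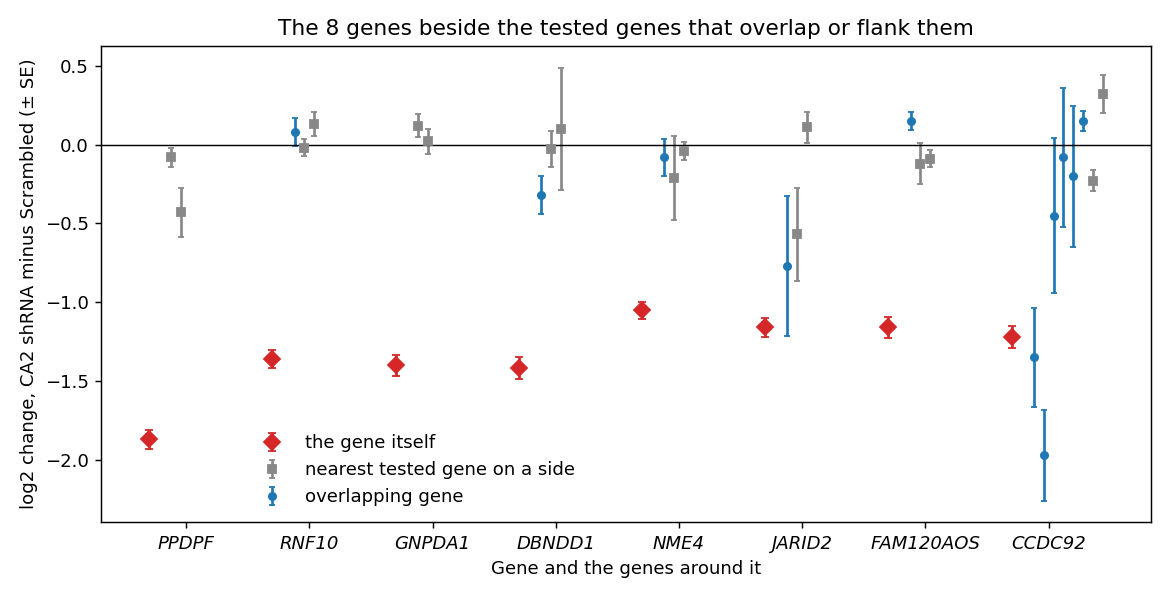
Log2 difference of CA2 shRNA minus Scrambled with its SE for each of the 8 genes (red) and for tested genes that overlap it (blue) or flank it (grey). Most neighbours lie near 0, while DNAH10 at -1.35 and DNAH10OS at -1.97 lie as low as CCDC92 or lower.

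Most relatives and partners of the members did not pass the test in both comparisons. Their lists were chosen with earlier results known and were not matched to all genes by level, so the shares are a description. Over 9 lists with tested genes, 111 relatives were tested; 2 rose and 11 fell in both comparisons, 1.80% and 9.91% of them, against 5.49% and 6.98% of all genes. Their median log2 difference was 0.03 in either comparison, and the lowest were -0.63 against Scrambled and -0.70 against Control, short of every member. RPS3, USP10, GNPDA2, GFPT1, GFPT2, EZH2 and CEP164 are named for their roles, and EDF1, TAFAZZIN, SLC25A33, EED, BLOC1S6 and CEP89 because they passed in 1 comparison alone, all chosen after their values were seen. Beside the counts per list below, 8.02% of all genes rose and 8.88% fell against Scrambled, and 6.41% rose and 8.26% fell against Control.

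In the ribosome list, which holds ligases, proteases and sensors of stalled ribosomes, 2 of 27 relatives of RNF10 rose and 2 fell against Scrambled, and 1 rose and 2 fell against Control. NEMF, which recognises the obstructed large subunit, fell from 39.8 to 26.3 CPM (log2 -0.60, adjusted p = 6.72e-05, and -0.58 against Control, adjusted p = 8.29e-05). HBS1L, which helps to split stalled ribosomes, rose by 0.32 (adjusted p = 0.00418) and by 0.28 against Control (adjusted p = 0.0119). Of the proteins RNF10 marks, RPS2 fell from 1809 to 1532 CPM (-0.24, adjusted p = 0.00897, and -0.33 against Control, adjusted p = 0.000722), whereas RPS3 stood at 289 and 287 CPM (-0.01, adjusted p = 0.943). USP10, which reverses the mark, was at 283 and 302.5 CPM (0.09, adjusted p = 0.331). EDF1, a sensor of collided ribosomes, rose against Scrambled by 0.25 (adjusted p = 0.0184) and stood at 0.20 against Control (adjusted p = 0.0606). The list's median was 0.07 against Scrambled and 0.04 against Control. Ribosomal protein genes have many near-identical pseudogenes, so their counts are uncertain.

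Of 19 tested enzymes of hexosamine and amino sugar metabolism, 0 rose and 1 fell in each comparison, with medians of 0.05 and 0.02. The glycolytic isomerase GPI, which uses the fructose-6-phosphate that GNPDA1 makes, fell from 591 to 494 CPM (-0.26, adjusted p = 0.00461, and -0.26, adjusted p = 0.0048). The second deaminase, GNPDA2, was at 14.2 CPM in Control, 13.4 CPM with Scrambled and 14.5 CPM with CA2 shRNA, a log2 difference from Scrambled of 0.11 (SE 0.125, adjusted p = 0.622). Enzymes of the opposite step did not pass either: GFPT1 stood at -0.03 (adjusted p = 0.812) and GFPT2 at 0.03 (adjusted p = 0.803).

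For NME4, 0 of 5 tested kinases of its family passed in either comparison, with medians of 0.13 and 0.08. NME1, the most abundant of them, was at 67.97 CPM with Scrambled and 76.8 CPM with CA2 shRNA (0.17, adjusted p = 0.0768), and NME6 at 22.3 and 24.4 CPM (0.13, adjusted p = 0.30). NME1 and NME2 are neighbours with a joint read-through transcript, so their counts are uncertain. Among 16 mitochondrial nucleotide and cardiolipin genes 1 rose and 2 fell in each comparison, with medians of 0.025 and 0.02. AK4, an adenylate kinase of the mitochondrial matrix, rose from 43.4 to 66.8 CPM (0.62, adjusted p = 0.000707, and 0.66 against Control, adjusted p = 0.000428). YME1L1, a protease of the inner mitochondrial membrane, fell by 0.30 (adjusted p = 0.0039) and by 0.33 (adjusted p = 0.00167). The cardiolipin remodelling gene TAFAZZIN fell against Scrambled by 0.27 (adjusted p = 0.0142; -0.20 against Control, adjusted p = 0.0683), and the nucleotide carrier gene SLC25A33 fell against Control by 0.40 (adjusted p = 0.0446; -0.34 against Scrambled, adjusted p = 0.0772).

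In Polycomb repressive complex 2, 1 of 12 tested subunits rose and 2 fell against Scrambled, and 0 rose and 2 fell against Control, with medians of 0.05 and 0.07. AEBP2, which shares with JARID2 one of the alternative forms of the complex, fell from 23.5 to 15.2 CPM (-0.63, SE 0.0837, adjusted p = 3.54e-05, and -0.70 against Control, SE 0.0837, adjusted p = 1.11e-05). The core subunit SUZ12 fell from 61.8 to 48.1 CPM (-0.36, adjusted p = 0.0142, and -0.53, adjusted p = 0.000995). The catalytic subunit EZH2 was at 72.35 CPM with Scrambled and 72.8 CPM with CA2 shRNA (0.01, adjusted p = 0.95), and the core subunit EED rose against Scrambled by 0.28 (adjusted p = 0.00601) and stood at 0.13 against Control (adjusted p = 0.213). Among the 3 demethylases most related to JARID2, KDM5B fell from 142 to 111 CPM (-0.35, adjusted p = 0.000165, and -0.32, adjusted p = 0.00042), while KDM5A differed by -0.08 (adjusted p = 0.497) and KDM5C by -0.04 (adjusted p = 0.688). Their median was -0.08 against Scrambled and -0.05 against Control.

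In the BLOC-1 and dysbindin list 0 of 10 rose in either comparison, 1 fell against Scrambled and 2 against Control (medians -0.04 and 0.005); KXD1, a subunit of the related BORC complex, fell by 0.24 (adjusted p = 0.0172) and by 0.22 (adjusted p = 0.0322), and BLOC1S6 fell against Control by 0.46 (adjusted p = 0.0168) and stood at -0.31 against Scrambled (adjusted p = 0.0947). Of 16 centriole genes 0 rose and 2 fell against Scrambled and 1 rose and 2 fell against Control (medians -0.015 and 0.01). The kinesin gene KIF24 fell by 0.38 (adjusted p = 0.00191) and by 0.40 (adjusted p = 0.00127), and C2CD3, needed to build distal appendages, by 0.35 (adjusted p = 0.00124) and by 0.33 (adjusted p = 0.00233). CEP89 rose against Control by 0.28 (adjusted p = 0.00615) and stood at 0.17 against Scrambled (adjusted p = 0.0746). CEP164, a partner of CCDC92 at the mother centriole, stood at -0.02 (adjusted p = 0.909). FAM120AOS is tied to the FAM120 family here only by its name and its place opposite FAM120A. In the FAM120 family FAM120C fell from 23.6 to 16.2 CPM (-0.54, adjusted p = 0.000116, and -0.51, adjusted p = 0.000205) and FAM120B differed by -0.10 (adjusted p = 0.289), so 0 of 3 rose and 1 fell in each comparison (medians -0.10 and -0.01). PPDPFL, the relative of PPDPF, did not have enough counts to be tested.

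**Figure D5:**
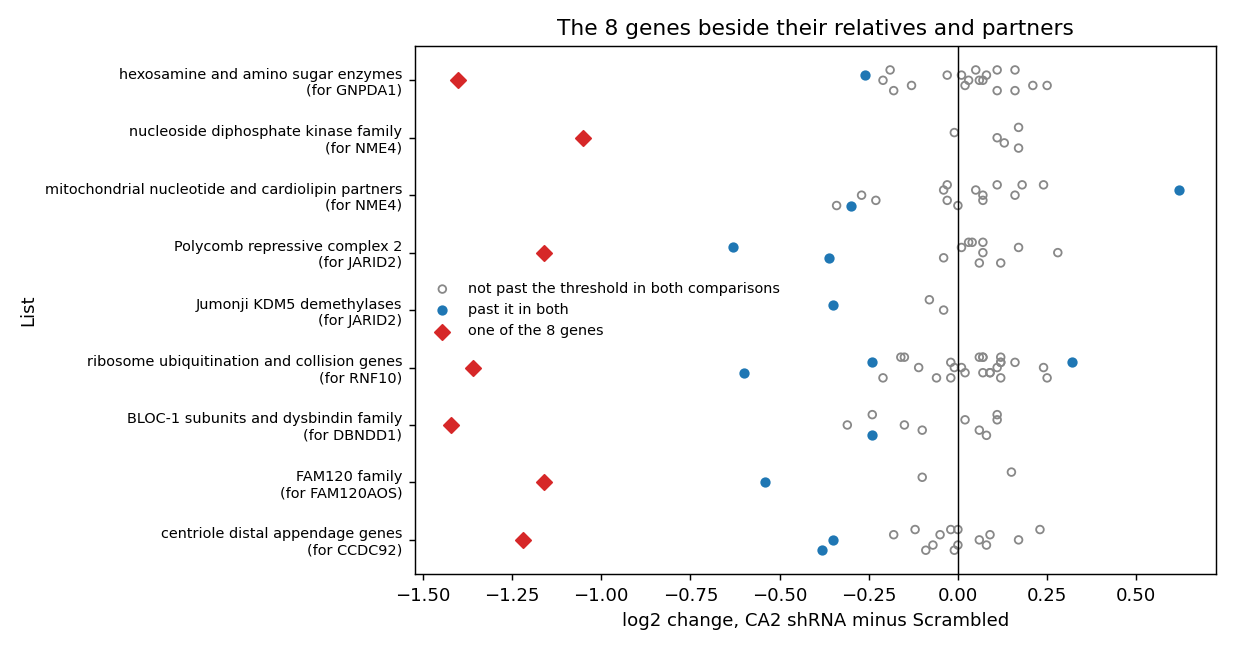
Log2 difference of CA2 shRNA minus Scrambled for each member with tested relatives (red) and for the relatives in its list (open, or blue where the adjusted p passed in both comparisons). The red points lie at -1.05 or lower, the lowest blue point, AEBP2, at -0.63, and the highest, AK4, at 0.62.

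The members' patterns over the 9 libraries were set beside one another and beside those of other genes. Likeness was measured as the root mean square difference of log2 levels after each gene was centred on its own mean, so 0 means the same profile whatever the level. It is made up largely of the difference between CA2 shRNA and the controls, by which the members were chosen, so likeness among members is fixed in part by the choice and is given as a description. For PPDPF, DBNDD1, NME4 and FAM120AOS a gene outside the 8 was closer than any member. JARID2 and FAM120AOS differed by 0.045, RNF10 and GNPDA1 by 0.058, and CCDC92 and FAM120AOS by 0.056, while PPDPF was the farthest member from each of the other 7, at 0.21 from DBNDD1 to 0.40 from NME4. Among 9922 other genes with at least 10 CPM in both control groups, the closest to NME4 was PRR14 (0.034), to FAM120AOS CCN2 (0.043), to DBNDD1 NSA2 (0.049), and to JARID2 PNMA2 (0.056). CCN2 was also the closest to CCDC92 (0.067), TRMT112 to RNF10 (0.078) and PIGP to GNPDA1 (0.09). The thioesterase gene ACOT7 was the closest to PPDPF, at 0.16, so none matched its profile as nearly. Second in line were LPGAT1 for PPDPF (0.20), PIGP for RNF10 (0.08), MYO1D for GNPDA1 (0.092), PALLD for DBNDD1 (0.083), PNMA2 for NME4 (0.066) and for CCDC92 (0.074), and ATP13A2 for JARID2 (0.064) and FAM120AOS (0.056).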

How the data were processed

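For each library the authors deposited a read count, CPM and RPKM for 60671 Ensembl genes, per the file headers. The submitters' processing notes name STAR 2.5.1a, featureCounts 1.4.6-p5, Subread, bcl2fastq and GRCh38. For annotation release, strand setting and multi-mapping reads the settings were not given in the sources used here. The deposited CPM is the count scaled by the library's total and the deposited RPKM is that CPM per kilobase of exon, and both were recomputed to the same values. RNA was total RNA, with QIAGEN FastSelect, a ribosomal RNA removal kit, per the labels' protocols.

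Symbols for 60401 IDs came from a reference table. Genes kept by edgeR's filterByExpr (19812) were scaled with TMM and fitted with edgeR 4.0.16 (quasi-likelihood F test, robust, all 9 libraries, a term per group, R 4.3.3), Benjamini-Hochberg adjusted over all genes with a threshold of 0.05; the biological coefficient of variation was 7.9%. The code was tested on simulated data. Libraries of 1 group differed by a chi-square of 4.42 to 19.3 per gene, where counting noise gives about 1, so none was counted as a repeat; the closest pairs of all were across groups, Control 3 with Scrambled 2 at 3.71 and Control 1 with Scrambled 3 at 4. The members and gene lists were chosen with earlier results of these data known; relatives were named where they passed in both CA2 shRNA comparisons (at most 4 a list), or by level where none did, and all of lists of up to 4, with exceptions stated. Alternatives were DESeq2 1.42.0, other scalings, filters and samples. Total counts of 16994368 to 34261244 set the precision, and the members had at least 329 counts in every library.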

Additional observations from a re-analysis of the deposited data

How the results depend on the processing

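In 17 alternatives the log2 differences of the 8 members ran from -1.91 to -1 against Scrambled and from -1.95 to -0.99 against Control; the choice of members fixes their sign, so this is no sign of stability, and no test is given. Of 136 values per comparison, 7 and 10 moved by more than the gene's own SD, which is small for FAM120AOS. Scrambled minus Control ran from -0.10 to 0.08, and the lowest adjusted p was 0.767. The count of genes against Scrambled was 3348, and 2059 to 4011 with 1 library left out, the lowest without Scrambled 3 and the highest without Scrambled 2, and against Control 2906, and 1962 to 3662. Between the control groups 0 genes became 7 without the filter, 1 with DESeq2 and 0 to 1 with 1 library left out. With the replicate block the counts were 3422, 2946 and 0. Same-numbered libraries had correlations of deviations from -0.185 to 0.105, and 2 of 9 libraries matched best with their own number. No shared deviation by number was seen, but 3 libraries a group cannot exclude pairing. The 13 relatives called in both comparisons became 11 to 18. What limits all of this is 3 libraries a group.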
